A study of Mus musculus with 6 samples.

Results

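Gapdh and Pgk1 encode enzymes of consecutive steps of glycolysis, and their transcripts were measured in C2C12 myotubes with and without cobalt chloride (CoCl2) by 5 mouse probes. The members were chosen by name: 3 probes for Gapdh and 2 for Pgk1, out of 60927 probes read on each array. They are 2 of the 16 genes that the array files name, by a RefSeq accession or by a control-type probe. One Gapdh probe carries a RefSeq accession and is printed 20 times on the array. The other 4 are control-type probes, printed 10 times each, that the array names Mouse-GAPDH or Mouse-PGK1 with the ending 3 or 5. That ending is taken here to mean the end of the transcript the probe lies nearer to. The files give neither probe sequences nor positions, so this reading could not be checked.

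C2C12 is an established mouse myoblast line that forms multinucleated myotubes in low serum. All 6 cultures were grown in 10% fetal bovine serum and differentiated in 2% horse serum, and all are labelled as myotubes. The control group received no treatment (n = 3). The CoCl2 group (n = 3) was exposed to 200 uM CoCl2 for 48 h before collection. Both groups come from this 1 cell line, and the series text describes the 3 samples of a group as independent experiments. None of the 11 myotube, 3 myoblast and 3 fibroblast markers looked for is named on the array, so the labelled cell type could not be checked against markers.

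Glycolysis breaks glucose down to pyruvate in the cytosol and yields ATP without oxygen, a route on which contracting muscle relies. GAPDH oxidises glyceraldehyde-3-phosphate and phosphorylates it, and PGK1 passes a phosphate group from the product to ADP, which makes ATP. Cobalt ions keep hypoxia-inducible factors from being degraded, and these factors bind DNA at a short core, ACGTG or GCGTG, near target genes. Pgk1 is a classical target of these factors, and Gapdh is also reported to respond in many cell types, although it is widely used as an unchanging reference gene.

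The 250 bases before the RefSeq start of each gene are shown because both transcripts were measured in a treatment that stabilises factors binding this core. Capitals mark ACGTG or GCGTG, searched on both strands, so that CACGT and CACGC are the same cores read from the other strand. The sequences come from RefSeq, build GRCm38.p6, and both genes matched by symbol. Pgk1 lies on the plus strand at chrX:106186850-106187099 and Gapdh on the minus strand at chr6:125165774-125166023. Each sequence is written 5′ to 3′ on the strand of its gene.
Pgk1: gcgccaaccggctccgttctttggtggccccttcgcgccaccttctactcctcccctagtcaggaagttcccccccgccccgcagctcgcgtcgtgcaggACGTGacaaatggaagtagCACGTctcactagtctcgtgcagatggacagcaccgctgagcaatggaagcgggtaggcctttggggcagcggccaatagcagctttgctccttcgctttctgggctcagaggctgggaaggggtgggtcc
Gapdh: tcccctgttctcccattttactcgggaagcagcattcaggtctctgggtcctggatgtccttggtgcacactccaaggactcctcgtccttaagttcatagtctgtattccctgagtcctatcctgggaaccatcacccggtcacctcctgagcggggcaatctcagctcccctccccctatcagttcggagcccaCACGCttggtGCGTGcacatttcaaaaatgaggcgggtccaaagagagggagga

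Each window held 2 matches, and no match overlapped another. In Pgk1 both were ACGTG, one on the gene's strand from 150 to 146 bases before the start and one on the other strand from 131 to 127. In Gapdh both were GCGTG, from 44 to 40 bases before the start on the gene's strand and from 54 to 50 on the other. Among 32851 RefSeq windows of the same length, 38.6% held at least 1 of the 2 cores and 16.7% held at least 2 matches. Counted separately, ACGTG was in 16.6% of the windows and GCGTG in 28.2%. The GC box GGGCGG, also searched on both strands, had 1 match in Pgk1 and 0 in Gapdh, against 32.7% of windows with a match, and TATAAA was in neither and in 12.4% of windows. The Pgk1 window had a GC content of 62.8% with 17 CpG pairs, and the Gapdh window 55.6% with 8. These matches describe letters, and binding was not measured in this series.

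Both transcripts were higher after CoCl2 by 4 of their 5 mouse probes. Signals are given as log2 intensity relative to the 75th percentile of the array, and a probe passed where its adjusted p in limma, over all 34851 probes tested, was under 0.05. The Pgk1 probes and the 3′ and 5′ Gapdh probes passed and were higher, while the Gapdh probe with a RefSeq name missed the threshold. Of all tested probes, 47.6% passed in either direction and 25.2% passed and were higher. The members' log2 fold changes ran from 0.44 to 1.63 with a median of 0.94, against a median of 0.11 over all tested probes. Every CoCl2 array lay above every control array for all 5 members, which was the case for 32.1% of the probes with 6 values, and 59.6% were separated in either direction. Members and probes share the same RNA, so the 5 probes are not independent measurements of the treatment. In RNA of whole cultures, a higher level per cell and a larger share of cells that express the gene cannot be told apart.

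Pgk1 was measured far above background by its 3′ probe. The processed signal of this probe, before scaling, was 135609, 124794 and 146557 on the arrays of controls 1, 2 and 3, and 212874, 235027 and 241467 on the treated arrays in the same order. Every treated array was brighter than every control even before scaling. Relative to the 75th percentile, the controls were at 8.30, 8.35 and 8.02 and the CoCl2 arrays at 9.29, 9.01 and 9.19. The means were 8.22 ± 0.18 and 9.16 ± 0.14 (SD, n = 3 each), a 1.92-fold rise with a 95% confidence interval of 1.49 to 2.47 (limma adjusted p 0.00257). The lowest treated array was 0.66 above the highest control. The rise was larger than that of 85.6% of all tested probes.

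The 5′ probe of Pgk1 gave the largest rise among the members. Its processed signal was 654, 916 and 1240 on the arrays of controls 1, 2 and 3, and 1961, 3077 and 2554 on the treated arrays in the same order. These signals were 33.8 to 168 times the local background, and every treated array was brighter than every control. Scaled values were 0.60, 1.26 and 1.14 in the controls and 2.53, 2.76 and 2.62 after CoCl2. The means of 1.00 ± 0.35 and 2.64 ± 0.12 (SD, n = 3 each) differed 3.11-fold (95% confidence interval 2.24 to 4.30, limma adjusted p 0.000693). Control 1 was the lowest array by this probe, and without it the log2 difference was 1.43 in place of 1.63. Of the 34851 tested probes, 1833 had a larger rise.

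Gapdh was read by 3 probes, of which the 5′ and 3′ probes passed and were higher after CoCl2 and the RefSeq-named probe did not pass. At the 5′ probe the processed signal was 94567, 82414 and 98918 on the arrays of controls 1, 2 and 3, and 167384, 172000 and 184467 on the treated arrays in the same order. Scaled values were 7.78, 7.75 and 7.46 in the controls and 8.94, 8.56 and 8.80 in the treated arrays, so the groups were separated. The means were 7.66 ± 0.18 and 8.77 ± 0.19 (SD, n = 3 each), a 2.15-fold rise (95% confidence interval 1.64 to 2.82, limma adjusted p 0.00169).

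At the 3′ Gapdh probe the processed signal was 195246, 143764 and 163403 on the arrays of controls 1, 2 and 3, and 234394, 243553 and 260346 on the treated arrays in the same order. Scaled values were 8.82, 8.56 and 8.18 in the controls and 9.43, 9.07 and 9.29 after CoCl2. Control 1 was the control nearest to the treated arrays, 0.24 below the lowest of them. The means of 8.52 ± 0.32 and 9.26 ± 0.18 (SD, n = 3 each) differed 1.67-fold (95% confidence interval 1.21 to 2.32, limma adjusted p 0.0199). This call was lost without control 2 (limma adjusted p 0.0569), control 3 (0.0638) or CoCl2 replicate 3 (0.0694). Of all tested probes, 34.3%, 35.3% and 33.0% passed in these settings, against 47.6% with all arrays. Over all settings tried the adjusted p ranged from 8.6e-05, with array weights, to 0.129. The call was also lost when the arrays were not scaled (log2 difference 0.57, limma adjusted p 0.129), where 33.9% of all tested probes passed.

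The RefSeq-named Gapdh probe was the 13th brightest of all tested probes. Its processed signal was 240607, 189391 and 206832 on the arrays of controls 1, 2 and 3, and 238776, 256928 and 267474 on the treated arrays in the same order. Unscaled, control 1 exceeded CoCl2 replicate 1, so the groups overlapped in raw signal. Scaled, the controls were at 9.12, 8.96 and 8.52 and the treated arrays at 9.46, 9.14 and 9.33, and the gap between the groups was 0.02. The means of 8.87 ± 0.31 and 9.31 ± 0.16 (SD, n = 3 each) differed 1.36-fold, with a 95% confidence interval of 0.99 to 1.86 (limma unadjusted p 0.0541, adjusted p 0.0956). That interval holds no change as well as a rise of the size seen at the 3′ probe. The probe passed without control 1 (log2 difference 0.57, limma adjusted p 0.0491), where 50.4% of all tested probes passed. It also passed with array weights (0.66, limma adjusted p 0.00086), where 76.1% of all tested probes passed. That fit gave CoCl2 replicate 3 a weight of 16.8, against 0.27 and 0.56 for CoCl2 replicates 1 and 2. With normexp and slide together, which sets control 3 alone against the CoCl2 arrays, the log2 difference was 0.74. The probe crossed the threshold there too, but no spread between controls enters that fit, so no call is read from it. Without control 3 the log2 difference of this probe was 0.27. Over all settings its limma adjusted p ran from 0.00086, with array weights, to 0.505. Processed pseudogenes nearly identical to Gapdh are common in the mouse genome, and their transcripts could be read by any of the 3 probes.

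**Figure D1:**
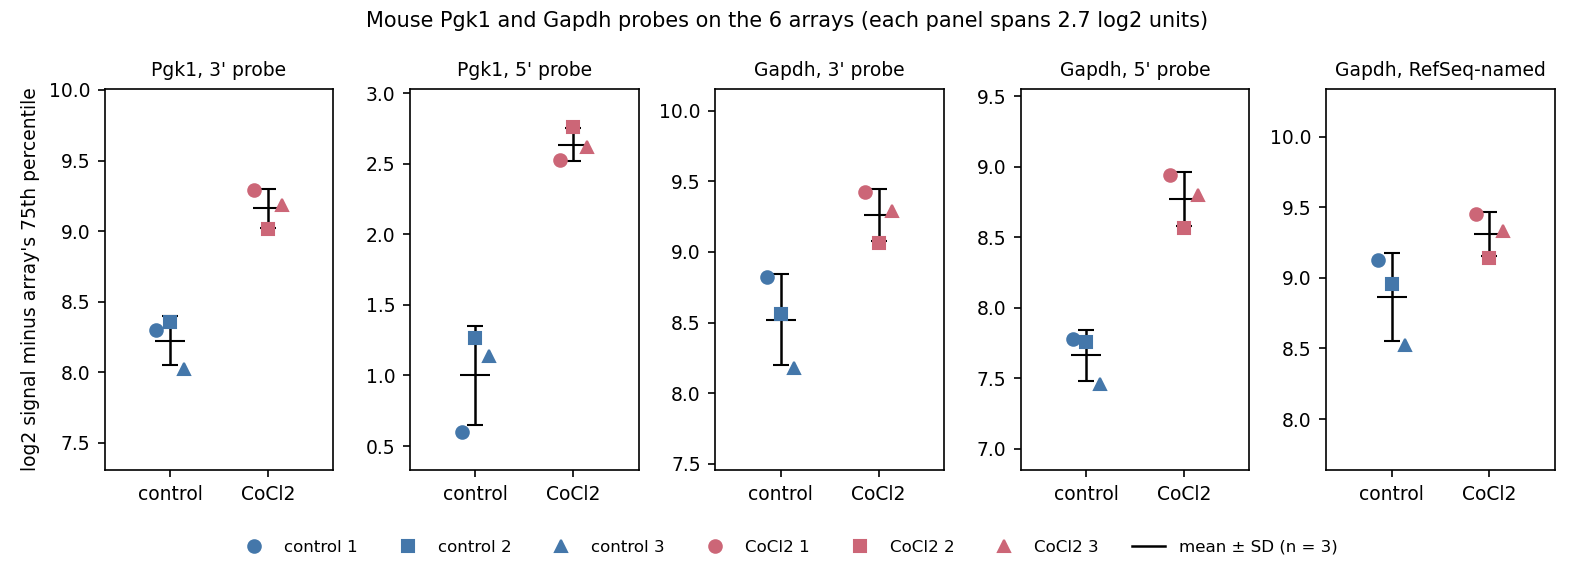
Scaled log2 signal of each mouse Pgk1 and Gapdh probe on the 3 control arrays (blue) and 3 CoCl2 arrays (red), with each group's mean ± SD in black; the vertical axes span the same range but start at different levels. Every CoCl2 array lies above every control array in each panel, by 1.26 at the Pgk1 5′ probe and by 0.02 at the RefSeq-named Gapdh probe.

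The spread between arrays was far larger than the spread between spots of 1 array. The members occupy 60 spots on an array, 360 in all. Of these, 360 were well above background, 0 were saturated and 9 carried an outlier flag and were left out. The SD over the spots of a probe on 1 array was 0.013 to 0.084 on the log2 scale with a median of 0.036, while the SD between arrays of a group reached 0.35. The brightest member spot reached 36.6% of the scanner's saturation value.

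The arrays differed in their scan, and this touches every fold change given here. A shared scan start was read as a shared slide: controls 1 and 2 each stood alone, and control 3 shared slide 3 and its scan day with the 3 CoCl2 arrays. Set against control 3 alone, the CoCl2 means were higher by 1.14 and 1.50 on the log2 scale at the Pgk1 3′ and 5′ probes. For Gapdh the same comparison gave 1.08 at the 3′ probe, 1.31 at the 5′ probe and 0.79 at the RefSeq-named probe. All 5 differences therefore kept their sign on the shared slide. The Gapdh differences and the Pgk1 3′ difference (1.14 against 0.94) were larger there than over all controls. The Pgk1 5′ difference was smaller (1.50 against 1.63). A fit with scan day as a block gave these same log2 differences. A fit with slide as a block makes this same comparison of control 3 with the 3 CoCl2 arrays, alone or combined with another setting, and no spread between controls enters it. Its adjusted p for the 4 probes that passed (0.0238 to 0.0487 in limma, with 15.7% of all tested probes passing) is therefore no check of those calls.

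Bright probes as a class were shifted after CoCl2 in this scaling, and 4 of the 5 members are among the brightest 1% of tested probes. The brightest 3486 tested probes had a median log2 difference of 0.33, and 30.9% of them passed and were higher. Quantile normalization brought that median to 0.04. Under it the log2 difference was 0.58 at the Pgk1 3′ probe, 0.74 at the Gapdh 5′ probe and 0.42 at the Gapdh 3′ probe, and these still passed. It was 0.12 at the RefSeq-named Gapdh probe and 1.63 at the dimmer Pgk1 5′ probe, as in the main scaling. Quantile normalization together with the slide block left 1 of the 5 past the threshold, the Pgk1 5′ probe (log2 difference 1.47, limma adjusted p 0.0258). Of all tested probes, 17.6% passed under that setting, 8.96% in the higher direction.

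**Figure D2:**
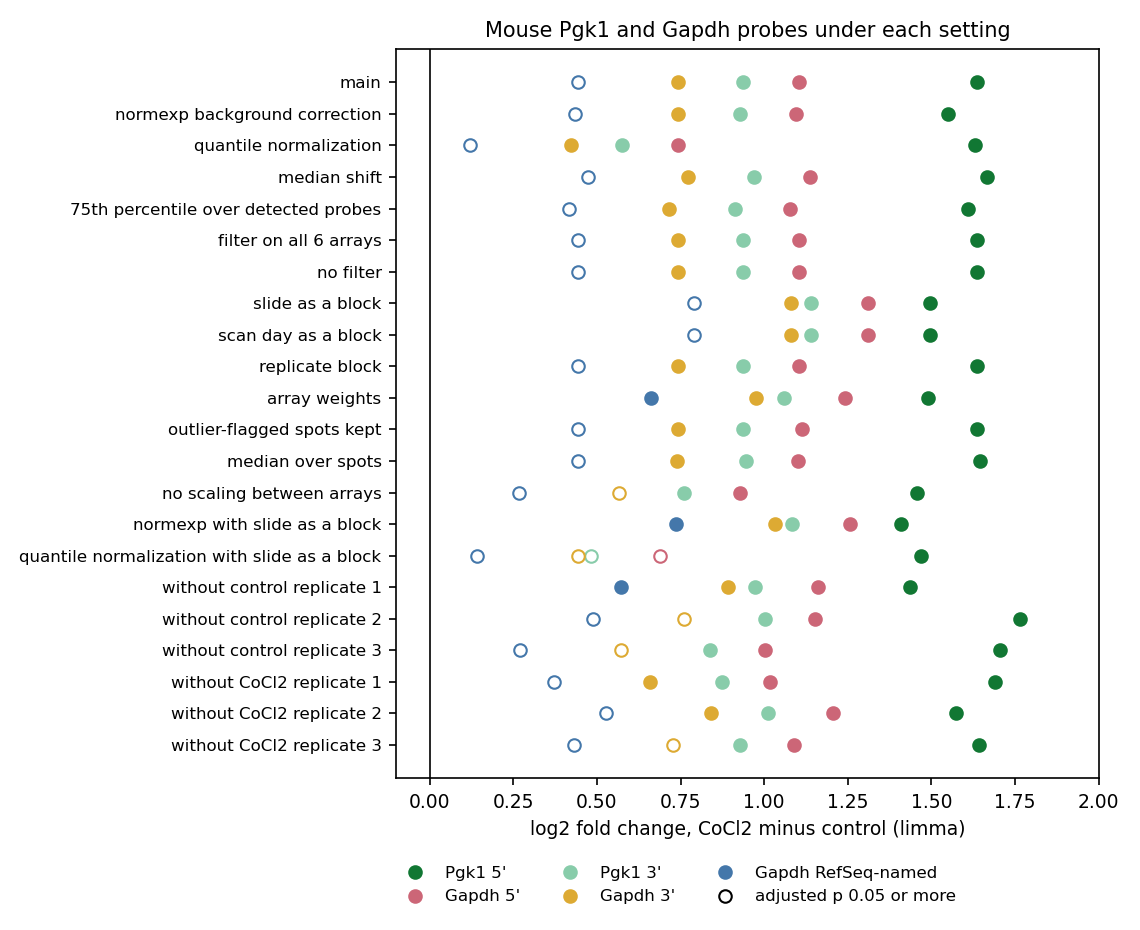
Log2 fold change (CoCl2 minus control, limma) of each mouse probe, coloured by probe, in each row's setting, with open circles for an adjusted p of 0.05 or more. All values lie right of 0, from 0.12 for the RefSeq-named Gapdh probe under quantile normalization to 1.77 for the Pgk1 5′ probe without control 2.

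Subtracting 1 probe from another within an array removes any shift of a whole array, and shows whether probes of 1 transcript moved together. The Gapdh 5′ probe minus the 3′ probe was -1.05, -0.80 and -0.72 on the arrays of controls 1, 2 and 3, and -0.49, -0.50 and -0.50 on the treated arrays in the same order. The treated arrays were nearly equal, the controls were spread, and control 1 was the lowest. The 5′ probe thus rose by 0.36 more than the 3′ probe (SE 0.10, 95% confidence interval 0.09 to 0.63). Without control 1 the excess was 0.27. The interval pools the variance of groups with unlike spread (SD 0.17 in the controls and 0.008 after CoCl2). Its exclusion of 0 depends on that pooling, and no conclusion is drawn from it. The Pgk1 5′ probe minus the 3′ probe was -7.70, -7.09 and -6.89 in the controls and -6.76, -6.26 and -6.56 after CoCl2. That is a difference in change of 0.70 (SE 0.28, 95% confidence interval -0.09 to 1.49), and it was 0.46 without control 1 and 1.06 under quantile normalization. Against control 3 alone the 5′ excess was 0.23 for Gapdh and 0.36 for Pgk1.

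The RefSeq-named Gapdh probe had the smallest difference of the 5 mouse probes. Minus the 3′ probe it stood at 0.30, 0.40 and 0.34 in the controls and at 0.03, 0.08 and 0.04 in the CoCl2 arrays, a difference in change of -0.30 (SE 0.03). Minus the 5′ probe the difference in change was -0.66 (SE 0.08). The groups did not overlap in either comparison. Between the genes, Pgk1 changed by 0.20 more than Gapdh at the 3′ probes (SE 0.12, 95% confidence interval -0.13 to 0.53) and by 0.53 more at the 5′ probes (SE 0.32, 95% confidence interval -0.35 to 1.41). Both intervals hold 0 and also a clearly larger change of Pgk1. Without control 1 the difference between the genes was 0.08 at the 3′ probes and 0.27 at the 5′ probes, and under quantile normalization the latter was 0.89.

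Exact two-sided permutation tests over the 6 arrays were run on these 6 within-array differences. Their p was 0.1 for 5 of them, the smallest that 3 against 3 arrays allow, and 0.2 for Pgk1 against Gapdh at the 5′ probes. Adjusted over the 6 they were 0.12 and 0.2, so no difference could pass 0.05 in this design.

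**Figure D3:**
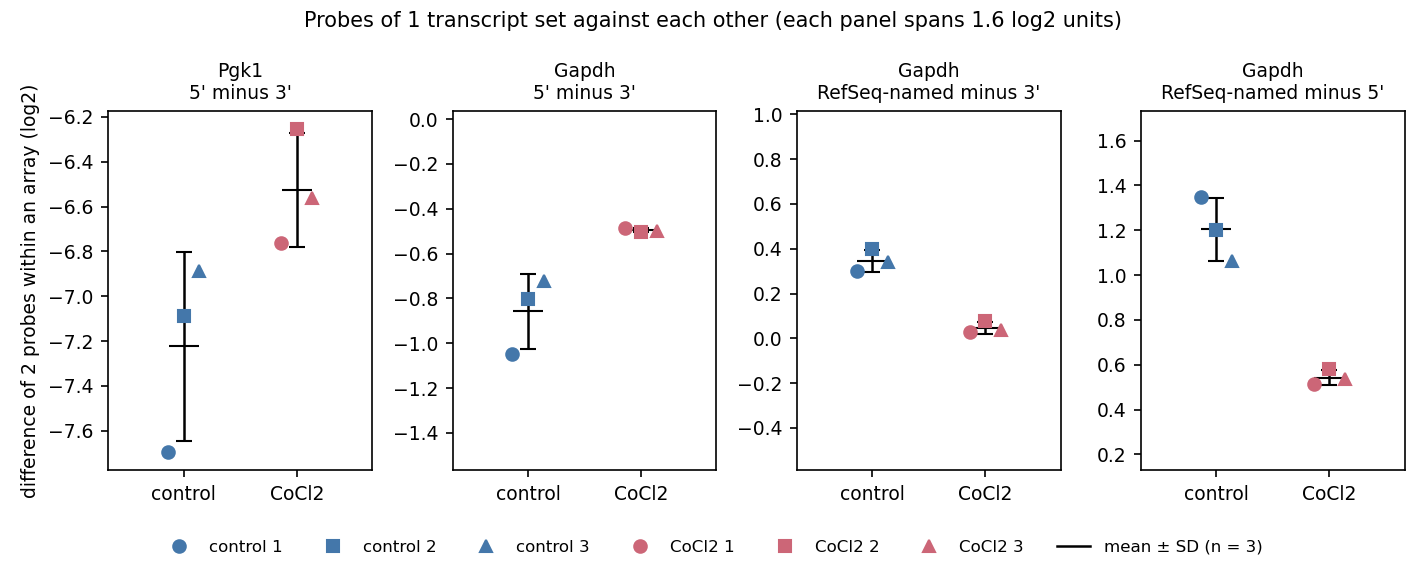
Log2 difference between the named probes of 1 transcript within each of the 3 control arrays (blue) and 3 CoCl2 arrays (red), with mean ± SD in black; each vertical axis spans the same range. The Gapdh 5′ minus 3′ difference lies between -0.50 and -0.49 on the CoCl2 arrays and between -1.05 and -0.72 on the controls.

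Probes named for the rat and human versions of both transcripts lie on the same arrays and serve as checks of cross-hybridisation. Of all tested probes, 25.2% passed and were higher, and 32.1% of those with 6 values had every CoCl2 array above every control. All 8 rat and human probes passed and were higher after CoCl2, with no overlap between the groups and log2 differences of 0.79 to 2.26. The rat Pgk1 3′ probe had the largest value, 2.26 (SE 0.27, limma adjusted p 0.000585), at -1.97, -2.23 and -1.33 on the arrays of controls 1, 2 and 3, and 0.76, 0.14 and 0.37 on the treated arrays in the same order. This probe was dim, 4.94 to 35.1 times the local background, and its difference against control 3 alone was 1.75. Human PGK1 gave 1.01 at the 3′ probe and 1.70 at the 5′ probe, close to the 0.94 and 1.63 of the mouse probes. Human GAPDH gave 0.79 and 1.18, against 0.74 and 1.10 for mouse. Rat Pgk1 gave 1.61 at the 5′ probe, and rat Gapdh gave 1.42 at the 3′ probe and 1.30 at the 5′ probe. The larger 5′ than 3′ change was seen for the human names of both genes (by 0.69 and 0.39) and not for the rat names, where the differences were -0.66 for Pgk1 and -0.12 for Gapdh. The groups overlapped in these comparisons except for human GAPDH, and none was tested.

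Over these 13 probes, dimmer probes showed the larger change. The rank correlation between a probe's mean scaled signal and its log2 fold change was -0.97 over the 13 probes, against 0.08 over all 34851 tested probes. The 13 probes report 2 transcripts, share the same RNA and arrays, and differ in sequence, so this is a description only. Signal differs between probes for reasons other than transcript amount, and no levels are compared between probes. The part of brightness in the order of the fold changes was not tested.

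**Figure D4:**
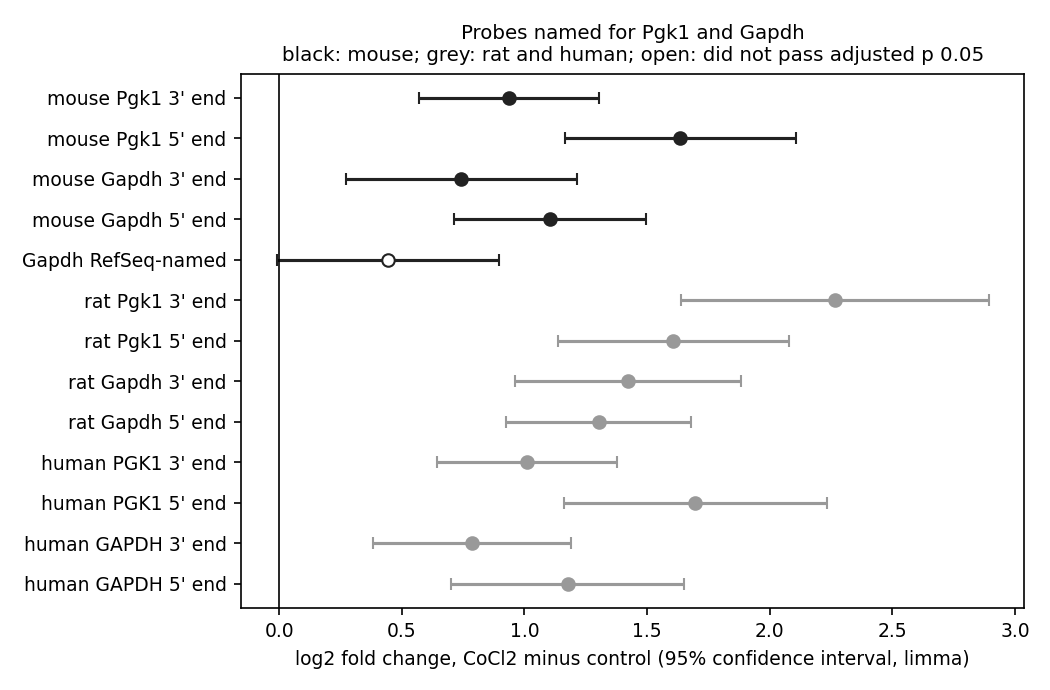
Log2 fold change (CoCl2 minus control) with its 95% confidence interval from limma for the 5 mouse probes (black) and the 8 rat and human probes (grey), with an open circle for the probe that did not pass. All 13 estimates lie above 0, from 0.44 for the RefSeq-named Gapdh probe to 2.26 for the rat Pgk1 3′ probe.

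Gapdh is often the gene that others are measured against, and the array names 14 further genes by a RefSeq accession. One of them, Ldhal6b, was well above background on 0 of the 6 arrays and is left out here. The change of Gapdh was compared inside each array with that of the other 13, which were well above background on all 6 arrays. The log2 fold change of the RefSeq-named Gapdh probe was above that of 10 of the 13 and below that of 3, by a median of 0.57. The groups did not overlap for 8 of the 10 and for 2 of the 3. Of single probes with 6 values, 59.6% were separated in either direction. The share for differences between probes was not computed, so these counts are descriptions only. Against the cyclophilin gene Ppia its value was larger by 0.44 (SE 0.07), against the actin gene Actb by 0.83 (SE 0.16) and against the tubulin gene Tuba1b by 0.90 (SE 0.03). Against Hprt, of purine salvage, the difference was -0.41 (SE 0.11). Against the glycerol kinase gene Gk the difference was -0.57 (SE 0.26), and -0.05 when only control 3 was used. Against the ribosomal protein gene Rpl13a it was -0.08 (SE 0.18), and 0.12 with control 3 only.

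Relative to the same 13 genes the Pgk1 3′ probe changed more than 12 and the Pgk1 5′ probe more than all 13, with median differences of 1.07 and 1.76. The groups did not overlap for 11 of the 12 and for all 13. The 3′ and 5′ Gapdh probes changed more than 11 and all 13 of them, with medians of 0.87 and 1.23, and the groups did not overlap for 8 of the 11 and for 12 of the 13. Under quantile normalization the Gapdh 5′ probe changed more than 12 of them, since its difference from Gk turned to -0.29. Among the genes nearest in change, the Pgk1 3′ probe differed from Hprt by 0.08 (SE 0.09) and from Gk by -0.07 (SE 0.19), with overlapping groups in both. The difference from Gk was -0.45 under quantile normalization and 0.30 with control 3 only. Gusb, the gene of the lysosomal beta-glucuronidase, which fell after CoCl2, gave the largest difference, 3.91 for Pgk1 3′ and 3.42 for the RefSeq-named Gapdh probe. The 13 comparisons of a member probe, here and above, share that probe's values, so counts of separated groups are not independent. The share of all probes separated in this way was not computed.

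**Figure D5:**
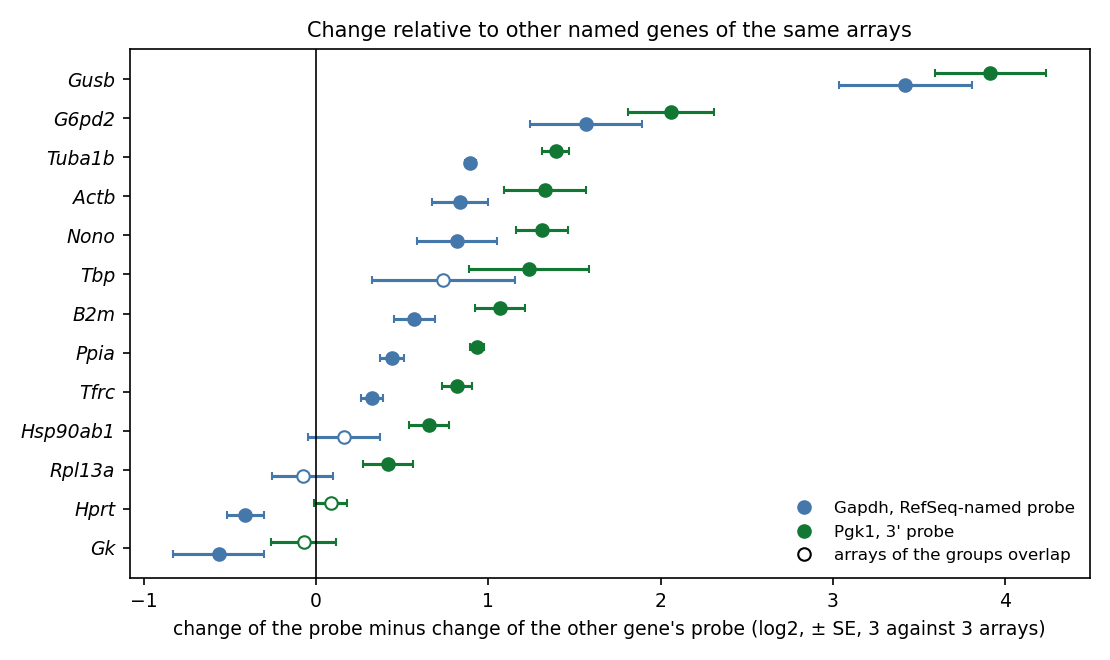
Change (CoCl2 minus control, log2 ± SE, 3 against 3 arrays) of the RefSeq-named Gapdh probe (blue) and of the Pgk1 3′ probe (green) minus the change of each of 13 other named genes on the same arrays, with open circles where the groups overlap. Gapdh lies right of 0 for 10 genes and left for Rpl13a, Hprt and Gk.

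The pattern over the 6 arrays was compared with that of the same 13 named genes by Pearson's r. Hprt was the most alike for 4 of the 5 members, with r of 0.98 for the Pgk1 3′ probe, 0.97 for the Gapdh 3′ probe, 0.98 for the Gapdh 5′ probe and 0.91 for the RefSeq-named Gapdh probe. With the group means removed, r with Hprt was 0.92, 0.87, 0.98 and 0.86, and Hprt was then the most alike for none of these 4 probes. The highest r was then with Ppia for the Pgk1 3′ probe (0.97) and the Gapdh 5′ probe (0.99), and with Tuba1b for the Gapdh 3′ probe (0.99) and the RefSeq-named probe (1.00). For the Pgk1 5′ probe Gk ranked first (r 0.94), followed by Hsp90ab1 (0.85) and Hprt (0.82), and with the group means removed these were -0.05, 0.61 and -0.51. After Hprt the most alike were Gk and Rpl13a for the other control-type probes, and Tfrc (0.89) and Rpl13a (0.85) for the RefSeq-named Gapdh probe. With the group means removed, r with Gk was -0.22 for the Pgk1 3′ probe, -0.26 for the Gapdh 3′ probe and -0.06 for the Gapdh 5′ probe, so this likeness lay in the difference between the groups. The Pgk1 3′ and Gapdh 5′ probes followed each other across arrays (r 1.00, and 0.98 with the group means removed), whereas the 3′ and 5′ probes of Pgk1 did so with the group means included (0.91) and not with them removed (-0.33). These values rest on 6 arrays that share their scaling and are descriptions.

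The glycolysis list holds 23 genes, of which Gapdh and Pgk1 are the 2 named on the array, so the rest of the pathway is not described here. Of the 22 listed targets of hypoxia-inducible factors 3 are named, the third being the transferrin receptor gene Tfrc. Tfrc did not pass (log2 difference 0.12, SE 0.17, limma adjusted p 0.568), and the Pgk1 3′ probe changed by 0.82 more than it (SE 0.09) with no overlap between the groups. Across the arrays 50.9% to 57.6% of 60915 probes were well above background, and the 75th percentile of processed signal lay between 340 and 563. The number of arrays, 3 in each group, limits the precision of all values.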

How the data were processed

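RNA of 3 control and 3 CoCl2 cultures was hybridised to 6 one-colour (Cy3) lncRNA arrays. Per the labels' protocols, the RNA was depleted of ribosomal RNA and amplified by random priming. The deposited files hold spot intensity, background-subtracted by Agilent Feature Extraction 11.0.1.1 per the file headers, with no scaling between arrays, and flags for outlier, saturated and well-above-background spots. The authors' deposited value table has none of the members and was not used.

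Outlier-flagged spots were left out, spots of a probe averaged on the log2 scale, and each array shifted by the 75th percentile of its 60915 probes (15 negative-control probes excluded). Probes well above background on at least 3 arrays (in at least 50% of their spots), with the 12 GAPDH and PGK1 control-type probes, entered limma 3.58.1 (R 4.3.3; lmFit, eBayes, two-sided) with Benjamini-Hochberg adjustment. The fit was tested on simulated data. SEs and intervals of within-array differences pool the variance of the groups. All 15 RefSeq accessions matched GRCm38.p6 symbols. Python 3.11.15, numpy 2.4.6, pandas 2.3.3 and scipy 1.17.1 were used.

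Members, lists and tests were chosen with earlier results of these data known. The genes named are the members by the rule, the rat and human probes, the 3 most alike RefSeq-named genes by Pearson's r, and named reference genes where Gapdh is set against them. Tfrc, Gk, Nono and G6pd2 are shown as further named genes of the panel. The alternatives were background correction, scaling, filters, blocks, weights, spot summary and arrays left out.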

Additional observations from a re-analysis of the deposited data

How the results depend on the processing

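All 105 values of the 5 mouse probes under 21 alternatives kept their direction, and 95 also kept their side of the threshold, as did 163 of 168 rat and human values. The changed filters and the replicate block cannot alter a log2 difference, so direction was fixed there. Scan day and slide as blocks give the same log2 differences. The 3 alternatives with slide as a block, and that with scan day as a block, compare control 3 alone with the CoCl2 arrays. A call kept, lost or gained there says nothing about stability. The cause of the other changes was not tested. Human GAPDH no longer passed at the 3′ probe with slide as a block (0.98), without scaling (0.61) or with quantile normalization and slide together (0.32), or at the 5′ probe with scan day as a block (1.08). Quantile normalization with slide also ended the calls of mouse Pgk1 3′ (0.48), Gapdh 3′ (0.44), Gapdh 5′ (0.69) and human PGK1 3′ (0.56), and no scaling that of mouse Gapdh 3′ (0.57). The RefSeq-named Gapdh probe newly passed with array weights (0.66), where CoCl2 replicate 3 had a weight of 16.8. It also crossed the threshold with normexp and slide together (0.74), where control 3 stands alone against the CoCl2 arrays. Both combined settings and the unscaled fit were chosen after seeing the data. With 1 array left out, mouse Gapdh 3′ ran from 0.57 to 0.89, the RefSeq-named probe from 0.27 to 0.57 and the count of all passing probes from 11505 to 17550. That count, 16595, was 5470 with slide, 7528 with scan day, 26521 with array weights, 7548 with normexp and slide and 6127 with quantile and slide. Without scaling 4739 were higher and 7082 lower, against 8777 and 7818, and the median over all probes was -0.07 in place of 0.11. The replicate block, tried because the titles share numbers, changed no member's call (RefSeq-named Gapdh 0.44, adjusted p 0.0735; Gapdh 3′ adjusted p 0.0155) and gave 18778 passing probes. Same-numbered arrays correlated by 0.30, 0.36 and -0.03 in their deviations from the group means, and other-numbered arrays by -0.37 to 0.18. These few values do not settle whether the numbers mark pairs, and the main fit did not use them as pairs. All 60 within-array values kept their sign. The value-table alternative could not be run, as that table lacks the probe.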
